A study of Mus musculus with 40 samples.

Results

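Tetracycline-treated ZHBTc4 cells after 120 hr, an end state that carries a trophoblast-like label, were compared with the same cells before treatment. ZHBTc4 is a male mouse embryonic stem (ES) cell line of strain 129/Ola in which both Pou5f1 alleles are disrupted and a Pou5f1 transgene, silenced by tetracycline (Tet), takes their place, so that the 0 hr cells carry the disrupted alleles and the transgene too. The members are the 3 arrays at 120 hr and the 3 at 0 hr of the late series, chosen by their titles from 18 late arrays (6 times, one every 24 hr, with 3 arrays each) and 40 arrays in all. The cells were grown without feeder cells on gelatin with LIF, as 1 line, and the labels do not say whether the replicates were separate cultures, so the p-values then measure only the spread between these arrays, which may be technical. Each array held the cells' RNA in Cy3 and a common reference, RNA pooled from mouse cell lines, in Cy5. Levels are log2 of the Cy3/Cy5 ratio on Agilent oligonucleotide arrays, and a change is the mean level at 120 hr minus that at 0 hr with n = 3 arrays per time unless another n is given. A gene was called higher or lower where limma's Benjamini-Hochberg adjusted p over all genes was at most 0.05 and the change was at least 1.5-fold.

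Trophoblast is the first lineage to leave the embryo: its epithelium encloses the blastocyst, implants and builds the fetal part of the placenta. Pou5f1 keeps the inner cells pluripotent, and ES cells that lose it stop self-renewal and take on features of trophectoderm. The transcription factors Gata2 and Gata3, simple-epithelium keratins and X-linked Rhox homeobox genes belong to early trophoblast, while prolactin-family hormones, Tpbpa and Gcm1 mark the later giant cells, spongiotrophoblast and syncytiotrophoblast.

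The 4 genes that mark the state, Krt7, Krt19, Gata2 and Rhox6, were all far higher at 120 hr. Krt7, a keratin of simple epithelia, read -0.69, -0.60 and -0.76 on the 3 arrays at 0 hr and 3.62, 3.27 and 3.37 at 120 hr. Krt19, a second keratin of this kind, read -2.26, -2.05 and -2.34 at 0 hr and 3.44, 3.35 and 3.43 at 120 hr. Every array at 120 hr stood above every array at 0 hr for both keratins. In bulk RNA, more cells that express a gene and more RNA per cell cannot be told apart. Krt19 changed by 5.62 on the log2 scale (SE 0.08, adjusted p 6.15e-18) and Krt7 by 4.10 (SE 0.08, adjusted p 2.45e-16). Gata2, a zinc finger factor that drives trophoblast genes, read -1.16, -1.18 and -1.19 at 0 hr, where none of the 3 spots reached the level that 95% of the negative controls stayed under, and 3.38, 3.24 and 3.39 at 120 hr. Its change of 4.51 (SE 0.05, adjusted p 9.94e-19) is therefore better given by its Cy3 signal as at least 27.7-fold higher. Such bounds set the mean of the brighter time against the higher of the spot's own signal and that level at the dimmer time. Rhox6, a homeobox gene of placenta and germ line, read 1.05, 1.63 and 1.61 at 0 hr and 5.41, 4.37 and 4.51 at 120 hr, with no overlap. It changed by 3.33 (SE 0.26, adjusted p 9.76e-09), with its Cy3 spot saturated on all 3 arrays at 120 hr, so that the level there is not fully measured.

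The reference channel of these bright spots was not flat. The Cy5 signal of the Krt7 spot was 1636, 1532 and 1433 at 0 hr and 4982, 6462 and 6046 at 120 hr, although the same reference RNA lay on every array. That of Rhox6 was 919, 761 and 753 against 3115, 3565 and 3408. The Cy3 signal alone, quantile-normalized between arrays, gave a change of 6.27 for Krt7 and 5.71 for Rhox6, against 6.16 for Krt19 and 5.24 for Gata2, so the ratio gave the smaller rise for each of the 4. What raised the reference signal was not tested.

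Pou5f1, the gene that Tet switches off, read 1.91, 2.40 and 2.04 at 0 hr, then 0.06, -0.03 and 0.11 at 120 hr and did not overlap between the times. It fell by 2.07 on the log2 scale (SE 0.11, adjusted p 4.87e-11). Its spot stayed only just above the negative controls' level at 120 hr, with Cy3 signals of 519, 533 and 523 against 506, 511 and 507. The size of the fall is therefore limited by that level, and the signal left there is no measure of remaining RNA. The study's supplement places its array oligo for Pou5f1 in the open reading frame, in a legend that does not name the array design.

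**Figure D1:**
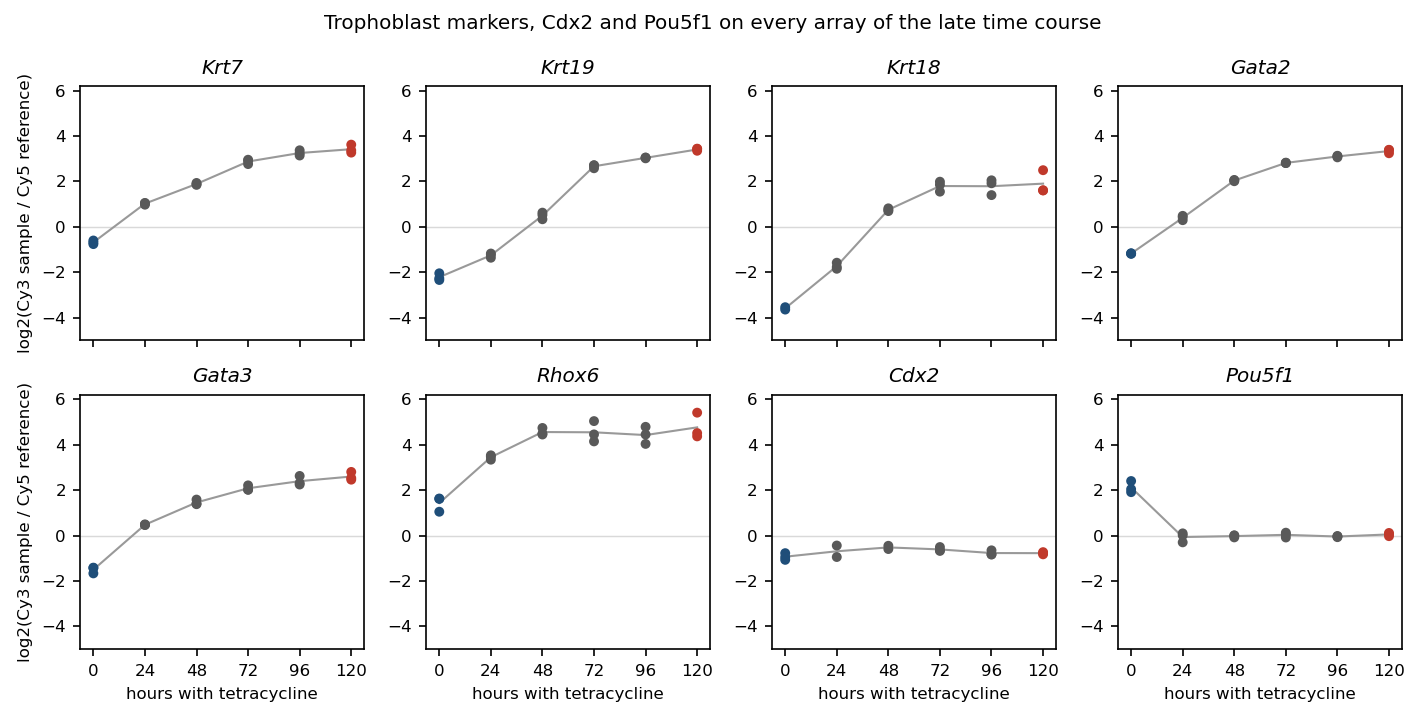
Levels of marker genes on each of the 18 late arrays, as log2 of the Cy3/Cy5 ratio, against hours of tetracycline, with 1 point per array and a line through the means. Krt7, Krt19 and Gata2 climb throughout, the mean change of Rhox6 lies between 2.99 and 3.33 from 48 hr on, Pou5f1 is down by 24 hr, and Cdx2 stays between -1.07 and -0.73 on the 6 arrays at 0 and 120 hr.

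The 6 arrays correlated between replicates at 0.966 to 0.994. The 3 arrays at 0 hr had a higher local background (385 to 389, against 372 to 377 at 120 hr) and brighter negative controls (medians of 573 to 586 against 480 to 485). Only 1 other late array, 24 hr replicate 1, had a background of that height. Of 20720 genes tested, 2500 were called higher at 120 hr (12.1%) and 1767 lower (8.53%). With those 4 arrays as a block, an analysis chosen after the data were seen, the counts were 2652 and 1528. The effect of this block is estimated only from 24 hr replicate 1 against the other 24 hr arrays. It therefore cannot separate background from time at 0 hr. The authors' own value table, which covers 16139 of the genes, gave 2700 higher and 1014 lower. Among the 11391 genes with a symbol 1912 were called higher (16.8%) and 1426 lower (12.5%). The median change was 0.0001 over all genes and 0.0023 over genes with a symbol, which is the level each gene list is to be read against. In a direction where limma called 0 members of a list, the members at an unadjusted p under 0.05 in that direction numbered 0 for trophoblast factors, epithelial junctions, annexins, prolactins, Rhox and Dppa genes, 1 for S100 proteins, 2 for pluripotency genes, claudins and aminoacyl-tRNA synthetases, 3 for endothelial markers, 4 for actin, mitosis and Sox genes, 5 for imprinted genes and 6 for cytosolic ribosomal proteins. The error model of the study's methods also called 0 in each of these.

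The promoters of 3 genes that rose and 1 that fell are shown with motifs of 2 kinds of trophoblast factor, the GATA factors and AP-2. Of the genes measured, 2 of 5 GATA factors and 1 of 4 AP-2 factors were called higher here. A GATA motif was the letters GATA with an A or a T before them and an A or a G after them, and an AP-2 motif was GCCNNNGGC, each sought on both strands in the 250 bases before and 50 after the RefSeq start. The AP-2 motif reads alike on both strands. Capitals mark these motifs, which share no letters with each other in the windows shown.
Krt7, GRCm38.p6, chr15:101412153-101412452, plus strand: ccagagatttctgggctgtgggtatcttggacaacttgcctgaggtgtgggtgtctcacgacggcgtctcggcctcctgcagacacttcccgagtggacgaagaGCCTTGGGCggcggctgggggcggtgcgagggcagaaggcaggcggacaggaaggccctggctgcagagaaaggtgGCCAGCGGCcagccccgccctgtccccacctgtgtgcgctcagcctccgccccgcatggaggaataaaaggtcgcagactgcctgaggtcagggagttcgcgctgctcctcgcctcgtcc
Gata2, GRCm38.p6, chr6:88193641-88193940, plus strand: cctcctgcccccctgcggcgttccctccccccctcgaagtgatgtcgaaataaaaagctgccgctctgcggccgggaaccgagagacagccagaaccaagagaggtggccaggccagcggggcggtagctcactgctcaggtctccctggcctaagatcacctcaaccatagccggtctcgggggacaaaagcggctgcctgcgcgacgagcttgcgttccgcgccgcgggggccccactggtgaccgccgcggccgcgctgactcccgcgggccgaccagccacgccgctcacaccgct
Gata3, GRCm38.p6, chr2:9878551-9878850, minus strand: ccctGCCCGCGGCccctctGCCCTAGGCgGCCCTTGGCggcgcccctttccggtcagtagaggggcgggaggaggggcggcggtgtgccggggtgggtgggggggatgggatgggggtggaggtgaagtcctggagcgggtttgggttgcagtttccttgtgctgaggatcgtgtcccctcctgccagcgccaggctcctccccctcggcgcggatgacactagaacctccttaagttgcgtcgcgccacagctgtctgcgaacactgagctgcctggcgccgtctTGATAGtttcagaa
Tcl1, GRCm38.p6, chr12:105222688-105222987, minus strand: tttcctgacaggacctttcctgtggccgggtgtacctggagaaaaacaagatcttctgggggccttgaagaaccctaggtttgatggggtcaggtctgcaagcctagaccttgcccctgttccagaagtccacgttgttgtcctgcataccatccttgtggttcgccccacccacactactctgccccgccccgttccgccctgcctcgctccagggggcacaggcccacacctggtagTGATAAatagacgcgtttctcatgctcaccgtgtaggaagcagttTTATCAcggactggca
Krt7 held 2 AP-2 motifs, Gata3 held 3 and 1 GATA motif, Tcl1 held 2 GATA motifs, and the Gata2 window held neither. Over the genes with a promoter in the table, a GATA motif stood in 17% of the 1547 called higher, 18% of the 1113 called lower and 22.2% of all 8920. An AP-2 motif stood in 28.3%, 24.9% and 22.6% of them. These matches are letters in a window and say nothing of binding.

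Of 25 trophoblast transcription factors measured, 15 were called higher and 0 lower, with a median change of 1.15 (0.76 without background subtraction). The median over the list was between -0.01 and 0.01 on the arrays at 0 hr and between 0.98 and 1.18 at 120 hr. Besides Gata2 and Rhox6 the largest changes were those of Irx3 (4.13), Gata3 (4.10) and Id2 (4.07). Gata3, the partner of Gata2 in the trophectoderm, read -1.41, -1.43 and -1.67 at 0 hr and 2.80, 2.46 and 2.53 at 120 hr. Id2, an inhibitor of basic helix-loop-helix factors that is typical of early trophoblast, read -3.72, -3.66 and -3.74 against 0.41, 0.36 and 0.31. Irx3, an Iroquois homeobox gene, was under the negative controls' level on all arrays at 0 hr and was at least 34.7-fold higher by its Cy3 signal. For each of the 3 genes the arrays at the 2 times did not overlap.

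Factors of the placental labyrinth and of trophoblast progenitors rose by less. Esx1, an X-linked homeobox gene of the labyrinth, changed by 2.72 and was at least 5.64-fold higher, since it was not above the negative controls at 0 hr. Pparg, a nuclear receptor needed for placental vascularization, changed by 2.57, Msx2 by 1.96, Ascl2, an imprinted factor of the spongiotrophoblast, by 1.60 and Tfap2c, the AP-2 gamma gene, by 1.36. Tfap2c was already high at 0 hr (3.31, 3.27 and 3.61) and reached 4.82, 4.68 and 4.76. Bhlhe40 (1.34), Tle3 (1.32), Rhox9 (1.15), Nr2f2 (1.02) and Hopx (0.94) completed the 15. Nr2f2 was dim at 0 hr and its bound was only 1.08-fold.

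Cdx2, the caudal homeobox gene that defines the trophectoderm, did not pass the test. The study described its array probe for this gene as unresponsive and turned to PCR, so the values that follow are those of the probe and no measure of the gene. It read -1.07, -0.78 and -0.95 at 0 hr, then -0.77, -0.73 and -0.83 at 120 hr, and the times overlapped (change 0.16, SE 0.11, adjusted p 0.282). Its largest mean change at any time was 0.41, at 48 hr. Elf5, which maintains trophoblast stem cells, read at most 0.03 at 0 hr and 0.46, 0.61 and 0.63 at 120 hr without overlap. Its change of 0.56 (limma adjusted p 3.71e-07) stayed just under the 1.5-fold threshold, which it passed without 120 hr replicate 1 (0.62). At 0 hr its spot was at the negative controls' level (Cy3 654, 623 and 634 against 653, 627 and 629), so this change is not precise. Hand1, a factor of giant cells, changed by 0.49 (adjusted p 0.00123), and Gcm1, which drives syncytiotrophoblast formation, by 0.13 (adjusted p 0.193).

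All 4 Rhox genes measured, of 31 in the family list, were called higher. Rhox4b, not above the negative controls at 0 hr, changed by 1.73, or 2.03 in Cy3 alone, and Rhox5, which reproductive and ES cells share, changed by 0.75 from a level above 2. Rhox9, saturated in Cy3 on all arrays at 120 hr, read 2.85, 2.81 and 3.12 at 0 hr and 4.84, 3.53 and 3.86 at 120 hr. Its change of 1.15 in the ratio stood beside one of 4.32 in Cy3 alone, and its Cy5 signal went from 700 to 798 at 0 hr to 4606 to 6397 at 120 hr. The median of the 4 genes was 1.44, against 3.17 in Cy3 alone and 2.41 in the authors' value table. The Rhox genes share sequence between copies, so the signal of 1 spot may hold more than 1 member.

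Placental hormones, proteases and other trophoblast products were mixed: of 43 measured, 17 were called higher and 1 lower, with a median change of 0.25 (0.12 with the scanner's processed signals, 0.05 without background subtraction). Nrk, an X-linked kinase of the spongiotrophoblast, was not above the negative controls at 0 hr (-0.15, -0.25 and -0.06) and read 5.25, 5.20 and 5.37 at 120 hr, which made it at least 23-fold higher. Serpinb9g, a serpin of the mouse Serpinb9 cluster, was dim at 0 hr too (-0.08, -0.06 and -0.20 against 3.81, 4.12 and 4.18) and changed by 3.94 in Cy3 alone. Slc2a1, the basal glucose transporter, read -1.05, -1.26 and -0.93 at 0 hr, then 2.47, 2.36 and 2.41 at 120 hr and changed by 3.49. None of these 3 overlapped. Serpinb9e changed by 3.14, and Plac1, an X-linked gene of the trophoblast surface, by 2.75.

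Few of the measured markers of the mature placental cell types were called. Prl3d1, Prl2c3, Prl5a1, Ctsq, Ctsj, Syna and Synb were not measured. Of 25 prolactin-family genes 15 were measured, 5 of them under the negative controls' level at both times. Of the 15, 1 was called higher and 0 lower, with a median of 0.15 (0.08 without 0 hr replicate 3). That gene, Prl2a1, read -0.26, -0.16 and -0.16 at 0 hr, then 0.25, 0.39 and 0.59 at 120 hr, and its change of 0.60 fell to 0.57 without 0 hr replicate 1 and to 0.51 without 120 hr replicate 3, both under 1.5-fold, as was 0.51 in Cy3 alone. Prl3b1, the placental lactogen of late giant cells, changed by 0.01 (adjusted p 0.946) and was under the negative controls' level on 3 arrays at 0 hr and 2 at 120 hr. Tpbpa, the marker of spongiotrophoblast, changed by 0.07 (adjusted p 0.370) with overlapping arrays. Flt1, the VEGF receptor that trophoblast secretes in soluble form, changed by 1.64, though it had changed by 2.22 at 96 hr.

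**Figure D2:**
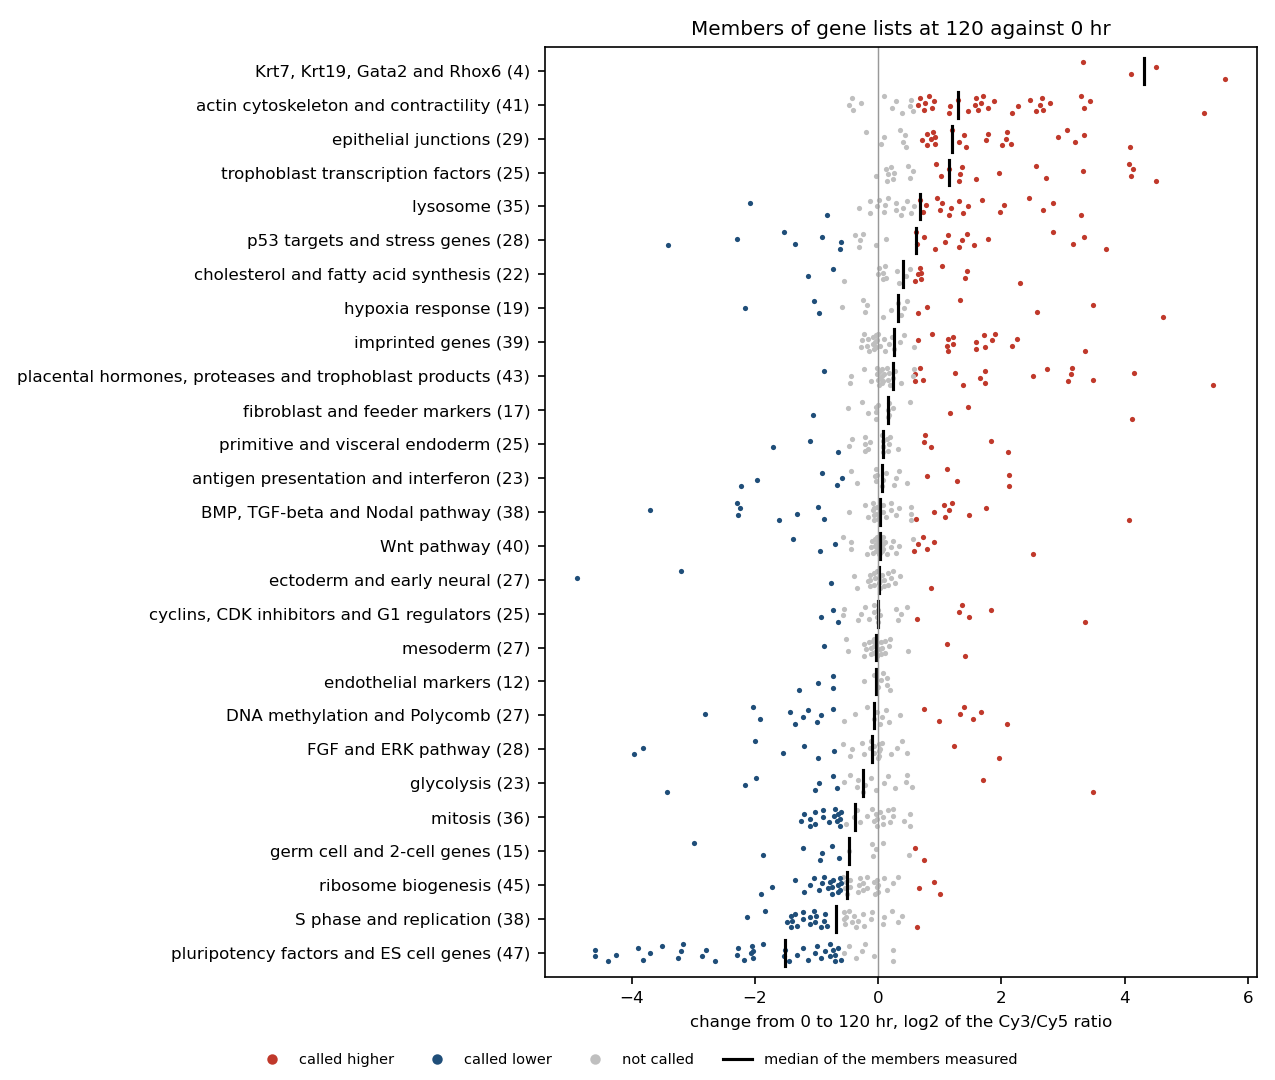
Change from 0 to 120 hr, as log2 of the Cy3/Cy5 ratio, of every measured member of each gene list, with 1 point per gene, the number measured in brackets and a bar at the median. Red points were called higher, blue points lower and grey points neither: actin, junction and trophoblast factor genes lie to the right, pluripotency and replication genes to the left.

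Most genes of epithelial junctions rose. Of 29 measured, 22 were called higher and 0 lower (median 1.21). The list median lay between -0.04 and 0.05 on the arrays at 0 hr and between 1.21 and 1.22 at 120 hr. Amot, a partner of tight junctions that holds back YAP, changed by 4.09, Perp, a desmosome protein, by 3.33 and Cldn7, a claudin of tight junctions, by 3.07. Amot read -1.18, -1.50 and -1.45 at 0 hr, then 2.60, 2.76 and 2.79 at 120 hr, and Cldn7 read 0.19, 0.33 and 0.33 against 3.41, 3.36 and 3.28, with wide gaps between the times. Cdh1 (E-cadherin) and Epcam, which ES cells share with epithelia, changed by 0.45 and 0.44 in the ratio and were not called. In Cy3 alone both were called higher, by 1.80 and 0.67, and the Cy5 signal of Cdh1 was higher by 0.87 at 120 hr. Of 19 claudins 5 were called higher (Cldn7, Cldn3, Cldn4, Cldn23 and Cldn6) and 0 lower, with 3 higher without background subtraction. In Cy3 alone Cldn23 was not called (0.35).

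Among 20 keratins measured 3 were called higher (15%) and 1 lower (5%), against 16.8% and 12.5% of genes with a symbol. Krt18, the partner of simple-epithelium type II keratins, had the largest change in the ratio after Krt19 among them, 5.49. It was measured on 2 arrays at 0 hr (-3.64 and -3.54), was saturated in Cy3 at 120 hr (2.49, 1.60 and 1.61), and changed by 5.25 in Cy3 alone. Krt17 was the 1 called lower, by -0.69, and it changed by -0.57 without 0 hr replicate 3, which is under 1.5-fold. The median of the family was 0.03.

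Most genes of the actin cytoskeleton rose: 30 of 41 were called higher and 0 lower (median 1.30, or 0.69 without background subtraction). Gsn, the actin-severing protein gelsolin, read -3.74, -3.93 and -4.46 at 0 hr, then 1.30, 1.24 and 1.20 at 120 hr and changed by 5.29. Wdr1, which helps cofilin take actin filaments apart and is named from the largest changes over all genes, changed by 4.43. Cnn2 (calponin, 3.44), Csrp1 (3.34) and Tpm2 (tropomyosin, 3.30) followed. Neither Cfl1 (cofilin, -0.43) nor Rhoa (0.29) was called, though Rhoa was in Cy3 alone (0.63). The Cfl1 spot was under the negative controls' level on 2 arrays at 0 hr. At 120 hr it was close to that level (Cy3 511, 534 and 561 against 506, 511 and 507), so it hardly measures the gene.

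Annexins bind membranes in a calcium-dependent way. Of 12 annexins 6 were called higher and 0 lower (median 0.79). Anxa1 read -4.25, -4.30 and -4.41 at 0 hr, then 1.04, 1.09 and 1.07 at 120 hr and changed by 5.39 (SE 0.08, adjusted p 6.15e-18), and Anxa3 (4.69), Anxa2 (4.05) and Anxa5 (3.43) went the same way. Of 12 S100 proteins, which bind annexins, 5 were called higher and 0 lower, led by S100a6 (4.39), which read -5.20, -5.13 and -5.37 against -0.75, -0.89 and -0.87. Each of these genes kept the 2 times apart on all arrays.

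Lysosomal genes were called higher in 18 of 35 cases and lower in 2, with a median of 0.68. Cd63, a membrane protein of late endosomes, changed by 3.29, and the protease gene Ctsz read between -2.61 and -2.59 on the 3 arrays at 0 hr and between 0.03 and 0.11 at 120 hr (change 2.68). Psap, the saposin precursor, varied more than its neighbours (-1.36, -0.35 and -1.20 against 2.38, 1.69 and 1.54, change 2.84, SE 0.48). Laptm4b was the member with the largest fall, -2.08. Of 234 solute carriers 49 were called higher (20.9%) and 22 lower (9.4%), against 16.8% and 12.5% of genes with a symbol. Without background subtraction the counts were 30 and 11. The rises included Slc40a1, the iron exporter ferroportin, at least 17.0-fold higher, and Slc16a1, a lactate transporter (3.31). The falls included Slc7a3, a transporter of cationic amino acids. Slc7a3 read 3.05, 2.89 and 3.02 at 0 hr, then -0.91, -0.87 and -0.89 at 120 hr and changed by -3.87, of which -3.75 was reached by 24 hr.

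**Figure D3:**
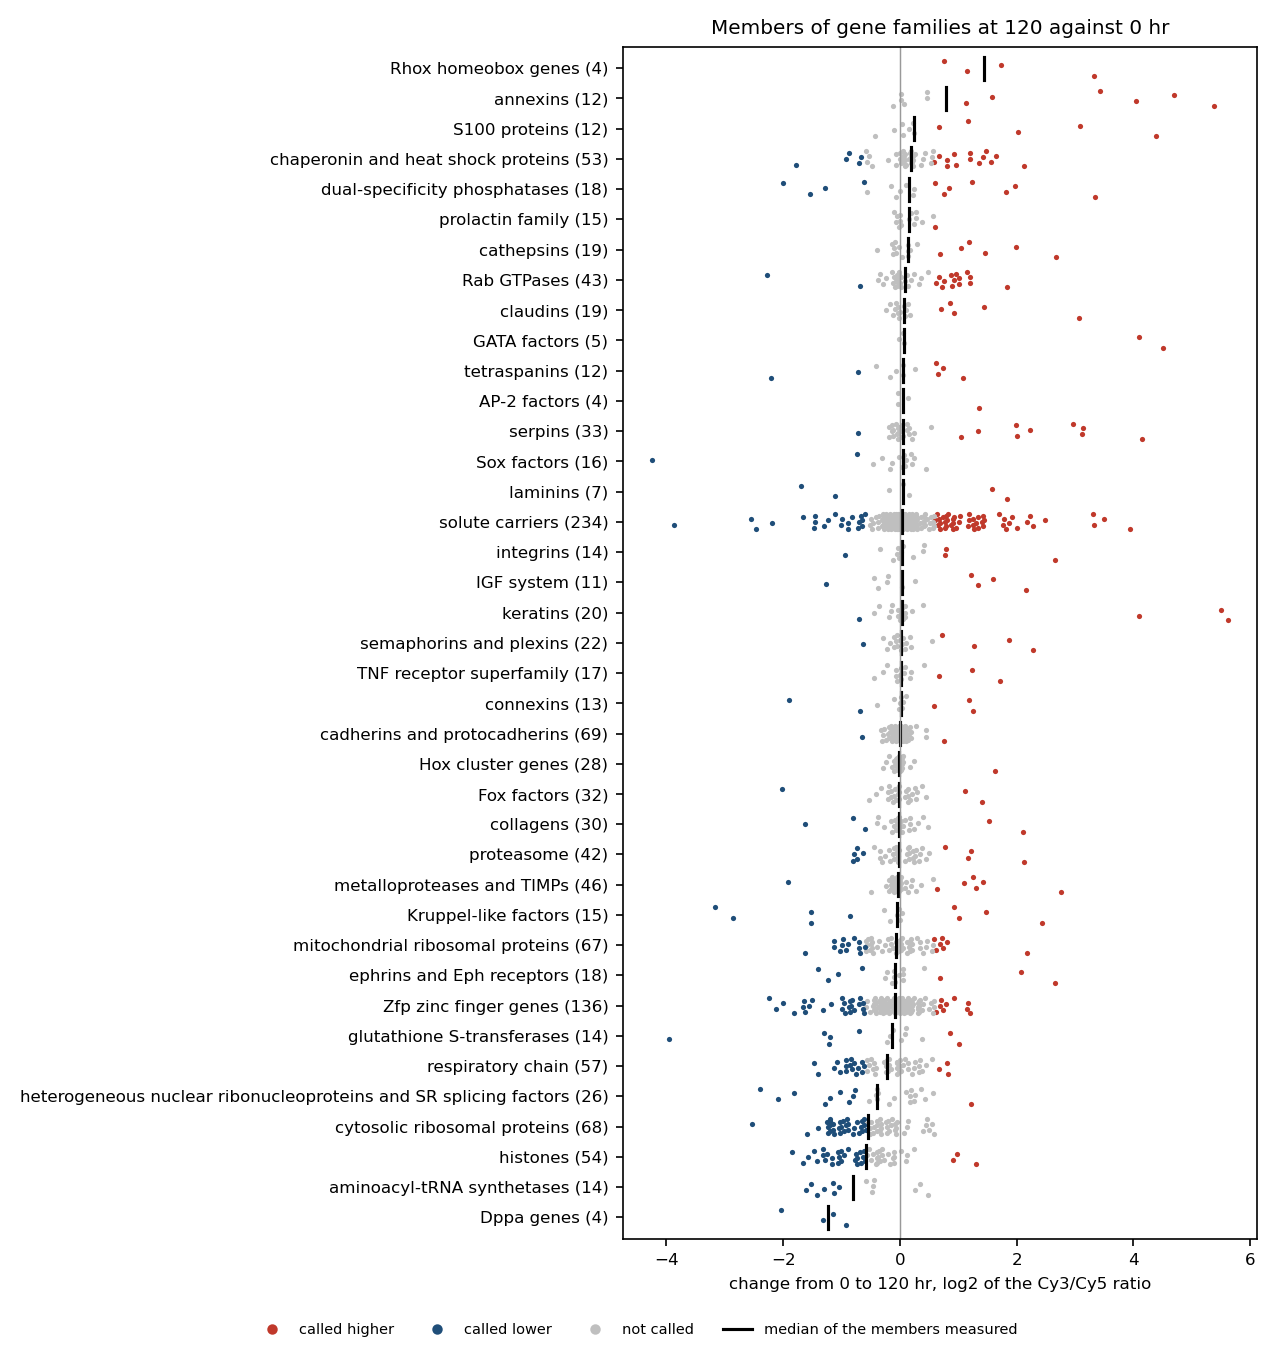
Change from 0 to 120 hr, as log2 of the Cy3/Cy5 ratio, of every measured member of each gene family, drawn as for the gene lists, with red points called higher and blue points called lower. Annexins and Rhox genes have medians of 0.79 and 1.44, cytosolic ribosomal proteins, histones and aminoacyl-tRNA synthetases medians of -0.54, -0.58 and -0.81.

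Most of the ES cell program fell. Of 47 pluripotency factors and ES cell genes 39 were called lower and 0 higher (median -1.51, or -2.45 in Cy3 alone), and the list median ran from -0.03 to 0.04 at 0 hr and from -1.57 to -1.47 at 120 hr. Their summed Cy3 signal above the local background, not normalized between arrays, was 258495 to 398659 at 0 hr and 32441 to 50321 at 120 hr. Sox2, the partner of Pou5f1 on DNA, read 5.47 and 5.30 on the 2 arrays measured at 0 hr and 1.17, 1.21 and 1.03 at 120 hr (change -4.25, n = 2 against 3). Nanog, the homeobox factor of naive cells, read 2.64 and 2.78 on 2 arrays and then -0.15, -0.09 and -0.01 (change -2.79, or -4.99 in Cy3 alone). No array at 120 hr reached the arrays at 0 hr for either.

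The falls with all arrays measured were led by Jam2, Tcl1 and Spp1. Jam2, a junction protein of ES cells, read 3.79, 3.84 and 3.91 at 0 hr, was not above the negative controls at 120 hr and was at least 40.3-fold lower. Tcl1, an Akt coactivator whose promoter is shown above, read 4.60, 4.59 and 4.32 at 0 hr, then -0.03, -0.09 and -0.12 at 120 hr and changed by -4.59 (SE 0.09). Spp1, the secreted phosphoprotein osteopontin, read -3.09, -2.96 and -2.65 at 0 hr and -7.13, -7.39 and -7.33 at 120 hr, both far below the reference RNA (change -4.39). Ooep (at least 16.8-fold lower), Lefty1, an inhibitor of Nodal signalling (-3.70), and the nuclear receptor Nr0b1 (-3.51), followed. The naive factor Klf2 fell from 3.20, 3.27 and 3.29 to 0.13, 0.08 and 0.04 (-3.17), and all 4 Dppa genes measured were called lower (median -1.23, or -2.51 in Cy3 alone). Dppa5a was saturated in Cy3 on all arrays at 0 hr, so that its change of -0.93 in the ratio stood beside one of -2.89 in Cy3 alone, and its second probe was not called (-0.40, adjusted p 0.119).

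A few ES cell genes fell less or were not called. Sall4 read 0.39, 0.33 and 0.42 at 0 hr and 0.33, 0.24 and 0.35 at 120 hr, with overlap and no call (change -0.07, adjusted p 0.340). Zfp42 (Rex1) was called lower by -0.79 in the ratio, from 4.78, 4.84 and 4.63 to 3.97, 3.87 and 4.04. In Cy3 alone it changed by -3.24, while its Cy5 signal changed by -1.80. Dnmt3b, the de novo DNA methyltransferase, changed by -0.55 and was not called, but was called without 0 hr replicate 1 (-0.63) or 120 hr replicate 1 (-0.62) and in Cy3 alone (-0.70). Esrrb was under the negative controls' level at both times and its probe gives no comparison.

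Markers of the other lineages held fewer calls than the trophoblast factor and ES cell lists. Genes with a symbol were called higher in 16.8% and lower in 12.5% of cases, and endoderm was near this at 20% and 12%. Of 25 genes of primitive and visceral endoderm, 5 were called higher and 3 lower, with a median of 0.07, and 19 of the 25 were above the negative controls at 120 hr against 14 at 0 hr. Their summed Cy3 signal was 11207 to 14996 at 0 hr and 9836 to 16351 at 120 hr. Such sums are not normalized between arrays. Since the negative controls were brighter at 0 hr, sums of dim spots cannot be compared between the times. The 5 were Col4a1 (2.10), Lamb1 (1.83), Pdgfra, dim at 0 hr and at least 1.62-fold higher, Dab2, likewise at least 1.64-fold higher, and Sparc (0.75, or 0.35 and not called in Cy3 alone). Without background subtraction or with the scanner's processed signals 3 genes of the list were called higher. The defining factors Gata6 (0.07, adjusted p 0.486) and Sox17 (0.08, adjusted p 0.239) overlapped between the times.

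Mesoderm gave 2 genes higher and 1 lower of 27 (median -0.03), the 2 being Foxc1, at least 2.66-fold higher, and Snai1 (1.13), while Mixl1 (-0.11) and Tbx6 (-0.02), which mark the primitive streak and early mesoderm, were not called. The summed Cy3 signal of these mesoderm genes, with the same limit as for endoderm, was 14853 to 18328 at 0 hr and 9998 to 14059 at 120 hr. Ectoderm and early neural genes gave 1 higher and 3 lower of 27 (median 0.02). Their falls included Stmn2 and Otx2, which ES cells also use: Stmn2, a tubulin-binding protein, read 1.60, 1.74 and 1.59 at 0 hr and -3.11, -3.26 and -3.35 at 120 hr (-4.88). Otx2 was at least 18.0-fold lower. Pax6 changed by -0.39. Endothelial markers gave 0 higher and 4 lower of 12 (33.3%), against 16.8% higher and 12.5% lower among genes with a symbol. Pecam1 (-0.73) is shared with ES cells, and 1 gene was called lower without background subtraction.

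Fibroblast and feeder markers gave 3 higher and 1 lower of 17, and the list median of 0.16 had the opposite sign without background subtraction (-0.01), with the scanner's own processed signals (-0.21), in the authors' value table (-0.06) and without 0 hr replicate 3 (-0.05). Their summed Cy3 signal, again not normalized between arrays, was 22528 to 40895 at 0 hr and 14756 to 26150 at 120 hr. Postn, the matrix protein periostin, rose from -2.63, -2.72 and -3.13, under the negative controls' level, to 1.12, 1.36 and 1.38 and was at least 6.80-fold higher. The smooth muscle genes Acta2 (1.45) and Tagln (1.16) made up the rest of the 3, and Fn1 (fibronectin) was called lower, by -1.06. Col1a1 (0.17) and Vim (0.16) were not called, and Vim read between -4.31 and -3.83 on all 6 arrays.

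No Sox factor was called higher, though 9 of 16 had a positive change. Sox2 and Sox21 were called lower (Sox21 by -0.74, and by -0.57 without 0 hr replicate 3).

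Calls among DNA replication genes were mostly falls. Of 38 genes of S phase 19 were called lower and 1 higher (median -0.69, or -0.36 in the authors' value table and -0.41 without background subtraction). The arrays at 0 hr had list medians of -0.07 to 0.10 and those at 120 hr of -0.86 to -0.66. Pold1, the catalytic subunit of DNA polymerase delta, read 0.89, 0.87 and 1.08 at 0 hr and -1.21, -1.14 and -1.18 at 120 hr (change -2.12), and Mcm7, a subunit of the replicative helicase, read 1.99, 2.04 and 2.02 against 0.07, 0.26 and 0.21 (-1.84). Both kept the times apart. Mitosis genes were called lower in 16 of 36 cases and higher in 0 (median -0.37), led by Ube2c (-1.25) and Bub1 (-1.21). Only 5 were called lower in the authors' value table (median -0.13) and 10 with the background block or without background subtraction, and the median was -0.25 without 120 hr replicate 1. Cdk1, the kinase of mitosis, changed by 0.19 (adjusted p 0.0796).

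Among cyclins, inhibitors and regulators of G1, 6 of 25 were called higher (24%) and 3 lower (12%), against 16.8% and 12.5% of genes with a symbol. Cdkn1c (p57), the imprinted inhibitor that goes with the endocycle of giant cells, read 1.03, 0.98 and 1.22 at 0 hr, then 4.67, 4.27 and 4.38 at 120 hr and changed by 3.36, or 5.96 in Cy3 alone. Rb1 (1.84) and Myc (1.47) were called higher as well. The stress genes of the p53 list split: 15 of 28 were called higher and 7 lower. The sister genes of the Gadd45 family went both ways, Gadd45b (3.71) and Gadd45g (3.16) up and Gadd45a (-2.28) down, each with no overlap. Trib3 fell from 2.57, 2.45 and 2.66 to -0.72 or less (-3.40), and Atf4, the factor of the amino acid response that drives it, changed by -1.36.

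Calls among genes that make proteins were also mostly falls. Of 68 cytosolic ribosomal proteins 33 were called lower and 0 higher (median -0.54), of 45 ribosome biogenesis genes 19 lower and 3 higher (median -0.50) and of 14 aminoacyl-tRNA synthetases 7 lower and 0 higher (median -0.81). Rpl22 had the largest fall of a ribosomal protein, from -0.24, -0.23 and -0.08 to -2.82, -2.69 and -2.65 (-2.54). Dkc1, the pseudouridine synthase dyskerin, changed by -1.91, Npm1 (nucleophosmin) by -1.35, and the synthetase gene Cars by -1.60. With the authors' values 21 of 49 ribosomal proteins and 8 of 43 biogenesis genes were called lower, and the biogenesis median was -0.13. Histones gave 27 lower and 3 higher of 54 (median -0.58, or -0.38 in the authors' value table), where copies of a type share sequence and cannot be told apart with certainty. Splicing factors of the hnRNP and SR families gave 9 lower and 1 higher of 26, with Srsf6 (-2.40) and Srsf7 (-2.09) the largest falls, and their median of -0.39 became 0.03 in the authors' value table and -0.20 without 0 hr replicate 3.

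Energy genes changed in both directions. Of 23 glycolysis genes 2 were called higher (Slc2a1 and Tpi1, 1.70) and 7 lower (4 with the background block). Ldhb, the lactate dehydrogenase subunit of oxidative tissues, read 3.08, 3.06 and 3.16 at 0 hr and -0.37, -0.30 and -0.31 at 120 hr (-3.42), while Ldha changed by 0.46 and was not called. Ndrg1, a stress gene that hypoxia induces, rose from -3.67, -3.67 and -3.79 to 0.89, 0.93 and 0.92 (4.62, SE 0.05) and was the largest change of 19 hypoxia genes, of which 6 were called higher and 3 lower. The respiratory chain had 17 of 57 genes lower and 3 higher (median -0.22), and 6 of 56 lower in the authors' value table (median -0.02). Cholesterol and fatty acid genes rose in 9 of 22 cases and fell in 2 (median 0.40), although 3 were called higher without background subtraction.

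Chromatin genes moved in both directions. Of 27 genes of DNA methylation and Polycomb 7 were called higher and 10 lower. The dioxygenase gene Tet1 read 3.16, 3.24 and 2.92 at 0 hr and 0.35, 0.32 and 0.21 at 120 hr (-2.81), Tet2 changed by -1.92 and Tet3, in contrast, by 1.55. Of the Polycomb repressive complex 2, Jarid2 (-2.03, measured on 2 arrays at 0 hr), Eed (-1.35) and Ezh2 (-1.14) were called lower. Mbd2, a reader of methylated DNA, rose by 2.09 and the maintenance methyltransferase Dnmt1 by 1.00.

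Imprinted genes, many of which act in placental growth, were called higher in 16 of 39 cases and lower in 0 (median 0.26, or 0.62 among those above the negative controls on some array). Both parental classes were among them. Of the maternally expressed genes Cdkn1c changed by 3.36, Slc22a18 by 2.17, H19 by 1.74 and Phlda2 by 1.22 in the ratio. In Cy3 alone these were 5.96, 2.48, 1.93 and 4.62, and the Cy5 signal was higher at 120 hr by 1.22 for Cdkn1c and by 2.26 for Phlda2. Of the paternally expressed ones Sfmbt2, a Polycomb-related gene of trophoblast, was at least 5.23-fold higher, Peg3 changed by 1.89 (3.46 in Cy3 alone) and Igf2 by 1.22. H19, a noncoding RNA, read -0.10, -0.06 and -0.22 at 0 hr, then 1.47, 1.68 and 1.69 at 120 hr, and Igf2, the growth factor of the same locus, read -0.17, -0.26 and -0.20 against 0.89, 1.09 and 1.03. Neither overlapped. Snrpn (-0.27) was not called. Meg3 was under the negative controls' level on all arrays at both times, so its probe gives no comparison.

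Signalling lists held calls in both directions, to be read beside 16.8% higher and 12.5% lower among genes with a symbol. In the FGF and ERK list 2 of 28 genes were called higher (7.14%) and 7 lower (25%). The ERK-induced factor Etv5 read 2.79, 2.45 and 2.62 at 0 hr and -1.30, -1.37 and -1.34 at 120 hr (-3.96). Egr1 changed by -3.81 (n = 2 against 3), Dusp6 by -1.54 and Spry4 by -0.72. Fgf4, the ligand of ES cells, changed by -0.26 and was not called. Ier2, an immediate early gene named from the largest changes over all genes, fell from -0.34, -0.34 and -0.25 to -4.15, -4.35 and -4.40.

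In the BMP, TGF-beta and Nodal list 9 of 38 genes were called higher (23.7%) and 8 lower (21.1%), against 16.8% and 12.5% of genes with a symbol. The falls were the Nodal inhibitor Lefty1 (-3.70), the ligand gene Gdf3, at least 36.8-fold lower, the Nodal coreceptor Tdgf1 (-2.28), the ligand gene Inhbb, at least 2.61-fold lower, the inhibitory Smad7 (-1.61), Id4 (-1.32), Eng (-0.97) and the ligand gene Bmp4 (-0.87). A second Tdgf1 probe read -4.60. The rises were headed by the BMP targets Id2 (4.07) and Id3 (1.75), with the receptor gene Bmpr1a at 1.09. The Wnt list gave 6 higher (2 without background subtraction) and 3 lower of 40. At 15% and 7.5% it did not exceed the shares over genes with a symbol. Its secreted inhibitor Dkk1 was at least 5.14-fold higher and Sfrp1, another inhibitor, changed by -1.37. Axin2, the common readout of this pathway, changed by -0.04.

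**Figure D4:**
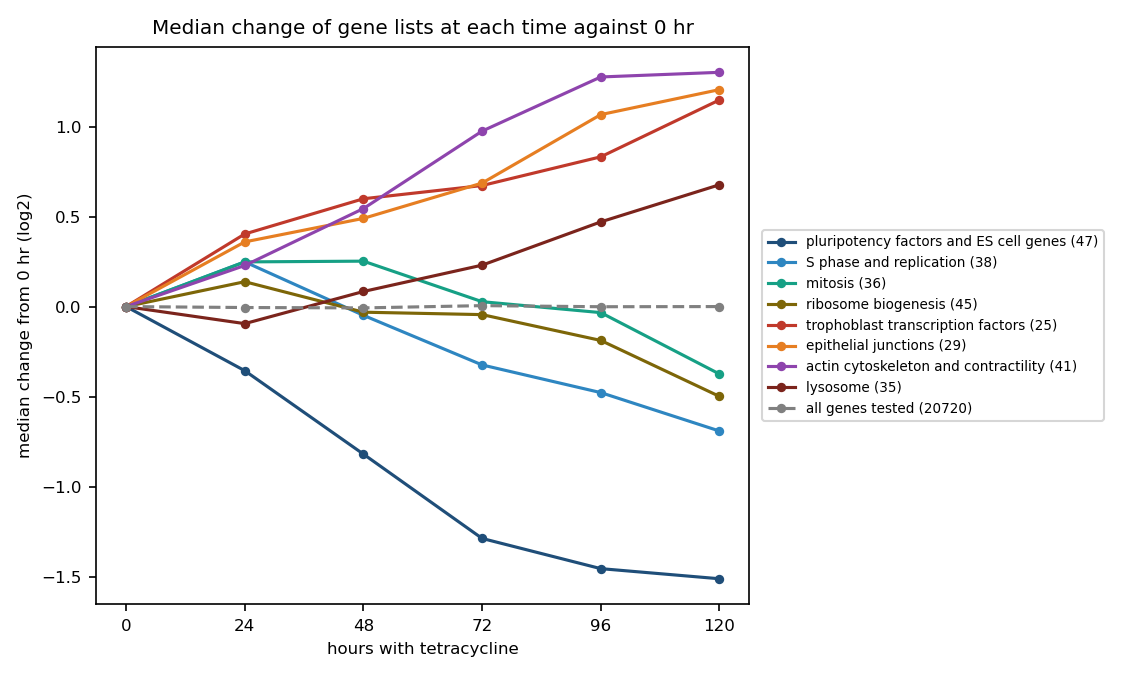
Median change from 0 hr of each gene list on the late arrays from 24 to 120 hr, as log2 of the Cy3/Cy5 ratio. Trophoblast factor and junction medians climb to 1.15 and 1.21, while the mitosis median is 0.25 at 24 hr and -0.37 at 120 hr.

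Few genes passed the 1.5-fold call in the last day. From 96 to 120 hr, 87 of 20720 genes were called higher (0.42%) and 32 lower (0.154%). From 72 to 120 hr, the counts were 890 (4.3%) and 323 (1.56%). Without 120 hr replicate 1 the last day gave 179 calls in place of 119. These comparisons share the 120 hr arrays with that against 0 hr, so values are given side by side only. Krt19 had changed by 0.96 after 24 hr, 2.71 after 48 hr and 4.88 after 72 hr, and reached 5.25 a day later and 5.62 at the end. Gata3 was at 1.98 by 24 hr, 3.58 by 72 hr and 3.90 by 96 hr. Gsn and Serpinb9g came later, with 0.20 and 0.11 after 24 hr, 3.13 and 2.31 after 72 hr and 5.29 and 4.15 in the end state. Gsta4, a glutathione transferase, fell late, by 0.36 after 48 hr, 1.79 after 72 hr and 3.96 in the end state. Tcl1, Jam2 and Lefty1 had changed by -4.62, -4.76 and -3.79 by 72 hr, with little further change in the ratio. At 120 hr Jam2 was under the negative controls' level on 3 arrays and Lefty1 on 2. Tcl1 was close to it (Cy3 525, 555 and 530 against 506, 511 and 507), so a further fall could not be seen.

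Of the 25 trophoblast transcription factors 4 were called higher between 72 and 120 hr. Of the 35 lysosome genes 3 were called higher in the last day and 14 over the last 2 days. Mitosis genes were called lower in 11 of 36 cases and ribosome biogenesis genes in 11 of 45 over the last 2 days. The median change of the mitosis list from 0 hr was 0.03 at 72 hr, -0.03 at 96 hr and -0.37 at 120 hr. That of ribosome biogenesis was -0.04, -0.19 and -0.50, and that of S phase -0.32, -0.48 and -0.69. These list medians thus still moved in the last day, by less than the call threshold.

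Retinoic acid (RA), which drives ES cells toward other fates, was set beside this end state. By the study's methods the RA cultures were shorter than 120 hr, so the durations differ as well. Arrays labelled LIF+,RA and LIF+ came from 4 other male ES cell lines of 129 strains on another array design, with 1 array per line and state. Nanog episomal carries an episomal vector, Nanog/EF1#6 a plasmid with Nanog, and MG1.19 and ES 129.3 are listed with no Nanog construct. By the study's methods the episomal vector held Nanog too, and both Nanog clones overexpressed it. The episomal clone was made from MG1.19, and the clones were cultured beside parental lines. The 4 lines are therefore related and not 4 independent replicates. The line was a block in limma, the LIF- arrays of the same lines shared the estimate of the spread, and no test was made between the designs. Over 37680 genes 1753 were called higher after RA (4.65%) and 455 lower (1.21%), and without MG1.19 both together came to 1436 in place of 2208. The 4 marker genes were called higher there too, by 2.84 for Krt7, 1.40 for Krt19, 1.43 for Gata2 and 1.53 for Rhox6, against 4.10, 5.62, 4.51 and 3.33 at 120 hr. Each rose in 4 of 4 lines. The trophoblast factor list had a median of 0.07 after RA (9 higher and 2 lower of 25) and of 1.15 at 120 hr. Pparg, Ascl2 and Tfap2c, at 2.57, 1.60 and 1.36 in the end state, stood at 0.14, -0.05 and -0.26 after RA, and Esx1 at 2.72 and 2.91.

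Endoderm and fibroblast lists stood higher after RA. Their medians were 0.83 (12 higher of 25) and 0.76 (10 higher of 17) after RA and 0.07 and 0.16 at 120 hr. Gata6 changed by 2.22 after RA and 0.07 at 120 hr and Sox17 by 1.48 and 0.08. Pluripotency genes were called lower in 22 of 47 cases after RA and in 39 at 120 hr. Spp1 changed by 0.40 after RA, higher in 4 of 4 lines and not called, against -4.39 at 120 hr, and Lefty1 by 0.14 against -3.70. The cytosolic ribosomal proteins had a median of 0.01 after RA, and S phase genes 1 lower and 1 higher of 38.

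**Figure D5:**
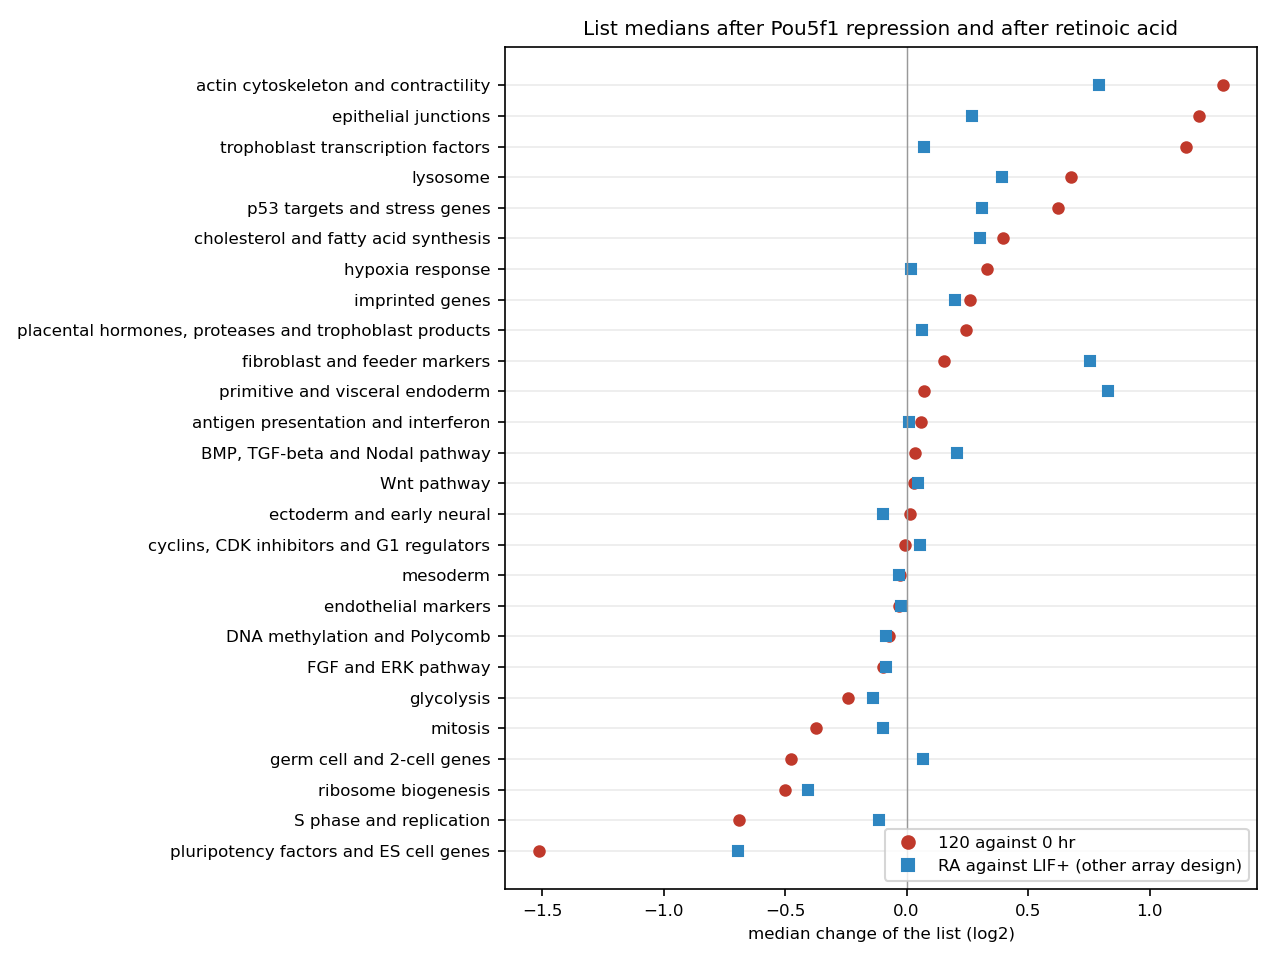
Median change of each gene list at 120 against 0 hr of Pou5f1 repression (circles) and after RA against LIF+ in 4 other lines on another array design (squares), as log2 of the Cy3/Cy5 ratio. Trophoblast factors stand at 1.15 and 0.07, endoderm at 0.07 and 0.83, and the actin list at 1.30 and 0.79. The RA cultures were shorter than 120 hr.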

How the data were processed

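Scanner files (Agilent Feature Extraction, per the file headers) gave the Cy3 and Cy5 intensity of each spot, and the authors also deposited a table of normalized log10 values, with Cy5 bleaching corrected, turned here to log2 as an alternative. The deposited column of 1 RA array holds a code for missing values, was recorded as a score and had the code removed. Mean signals were corrected for the median local background (normexp, offset 50) and normalized by loess within each array, with control and outlier spots at weight 0. Outlier spots were left missing and saturated ones kept. The log2 Cy3/Cy5 ratio of 18 late arrays entered 1 limma fit (R 4.3.3, limma 3.58.1) with Benjamini-Hochberg adjustment over all genes. A called gene had an adjusted p of at most 0.05 and a change of at least 1.5-fold. The brightest of a gene's probes stood for the gene, and of 21052 gene probes 10422 were named by accession, 1300 by the study's tables and 9330 by neither. The fit was tested on simulated data. The number of arrays limits the precision.

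No dye swap was made, and a dye effect common to all arrays cancels in the difference between times. Groups come from the titles. On the late arrays the deposited treatment text is about a different vector and cell line, so the titles and the study's methods were followed. RA values are on the probe of identical sequence. Promoters are those of RefSeq (GRCm38.p6), the first listed for each gene.

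Members and gene lists were chosen with earlier results of these data known. Named genes were the 12 largest rises and falls with no overlap, the markers, and of each list the largest called changes and its defining genes. Alternatives covered normalization, reference channel, background, scaling, test, probe choice, filters, a replicate block and leaving out each array. Some genes are not reported here.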

Additional observations from a re-analysis of the deposited data

How the results depend on the processing

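Without background subtraction 1481 genes were called higher and 977 lower in place of 2500 and 1767, and the authors' value table gave 1014 lower over fewer genes. Other settings kept both counts within 1.5 times: 2621 and 2451 in Cy3 alone, 2574 and 1612 with Cy5 corrected for bleaching, and 2652 and 1528 with the background block. That block is an alternative chosen after seeing the data, and its effect rests on 1 array. Leaving out 1 array gave 2398 to 2641 higher and 1618 to 1876 lower. Between 96 and 120 hr 203 genes were called in Cy3 alone, and 96 to 179 without 1 array, the highest without 120 hr replicate 1. Between 72 and 120 hr the range was 1124 to 1450. After RA it was 1436 to 2242 without 1 line, the lowest without MG1.19. The causes were not tested. Replicate numbers did not pair the arrays, since the deviations of arrays with the same number at 0 and 120 hr correlated at 0.234, -0.411 and 0.363. With the replicate number as a block, the counts were 2502 higher and 1767 lower, 122 between 96 and 120 hr and 1224 between 72 and 120 hr. Scan or slide as a batch was not run, because no scan date is given and each array has its own slide. Genes near the negative controls have bounds only, so their changes in the ratio are not precise.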

Other observations

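The genes with the largest changes in Cy3 between 0 and 120 hr also had changes in the reference channel. For the 100 largest rises the median Cy3 change was 3.72 and the median Cy5 change 0.25, with Cy5 higher at 120 hr for 93 of them. For the 100 largest falls the medians were -3.26 and -0.23, with Cy5 higher for 6, against medians of -0.04 and -0.00 over all 20720 genes tested.

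Genes that changed in the last day, chosen after their values were seen, included Isg15, the ubiquitin-like protein that interferon induces. It changed by 1.07 from 96 to 120 hr (limma adjusted p 1.24e-06) and by 1.12 from 0 to 120 hr. Usp18, which removes Isg15 from proteins, changed by 0.91 and Adar, an RNA-editing enzyme, by 0.83. Among the falls of that day were Acta1 (-1.14), an actin of muscle, Ccn1 (-0.99) and Thbs1 (-0.78), 2 secreted matrix proteins, and Tagln (-0.70).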
